A study of Drosophila melanogaster with 5 samples.

Results

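Chromosome 4 is the smallest chromosome of Drosophila melanogaster, and 358 of the 24341 peaks called in this study lay on it. They were 109 of 11679 peaks for Yorkie (Yki), 53 of 2557 for Scalloped (Sd) and 196 of 10105 for RNA polymerase II (Pol II). A peak belonged to the set when its deposited chromosome was 4, so its position alone chose it and no measured value did. The chromosome makes up 1.12% of the length of the 6 arms compared here, and it held 0.933% of the Yki list, 2.07% of the Sd list and 1.94% of the Pol II list. The lists also hold peaks outside these 6 arms, so the bases of these shares differ. The comparison throughout is with the other 5 arms, 2L, 2R, 3L, 3R and X, in the same libraries.

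Most of the fourth chromosome is packaged as heterochromatin, with repeats interspersed among its genes, yet many of those genes are transcribed. The protein POF binds along this chromosome at its genes. Among the genes it carries are eyeless (ey) and twin of eyeless (toy), the Pax6 factors that start eye development, cubitus interruptus (ci), the transcription factor of Hedgehog signalling, pangolin (pan), that of Wingless signalling, and zfh2, a zinc-finger homeodomain factor. Yki is the coactivator through which the Hippo pathway controls growth. It does not bind DNA by itself, and Sd, the fly TEAD factor, is its best known DNA-binding partner.

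Chromatin immunoprecipitation and sequencing was done on eye imaginal discs of third-instar larvae. Yki and Sd were mapped in GMR-Gal4; UAS-Drosophila Yki S168A discs, with a form that lacks a phosphorylation site used by the Hippo pathway, and Pol II in GMR-Gal4; UAS-Drosophila Yki-V5 discs. Both genotypes overexpress Yki and both are labelled as having ectopic cell proliferation, so no list here describes discs without extra Yki. GMR-Gal4 is active in the cells at and behind the morphogenetic furrow, so part of each disc does not carry the extra Yki. Discs were pooled, with about 300 discs for each immunoprecipitation, and each antibody had 1 library. Antibody and genotype therefore cannot be told apart wherever Pol II is set beside Yki or Sd, and no p-value is given. Exact 95% Clopper-Pearson intervals are given for shares. They cover counting error only and treat peaks as independent.

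Each peak carries 1 deposited value, called its score, which behaves as a −log10 q value and is used only to rank peaks within a list. The lists carry no counts, so the depth of reading behind a peak is unknown. An overlap means at least 1 shared base. Coordinates are on build dm3 and 1-based, and low coordinates lie towards the centromere. No dm3 annotation was used, so peaks are not assigned to genes.

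Sd and Pol II peaks were dense on chromosome 4, and Yki peaks were not. The Sd list held 39.3 peaks per Mb there and 20.6 elsewhere. The ratio was 1.91 (exact counting interval 1.42 to 2.50), and the 5 arms taken singly ran only from 19.7 on 2R to 22.2 on 3L. Pol II had 145 peaks per Mb against 82.0, a ratio of 1.77 (1.53 to 2.04), with single arms between 75.9 and 93.5. Yki had 80.9 against 96.1 per Mb, a ratio of 0.841 whose interval (0.690 to 1.02) includes equality. Pol II peaks covered 11.4% of the chromosome against 5.11% of the other arms, Sd peaks 1.23% against 0.639%, and Yki peaks 4.10% against 4.77%. The excess of Pol II peaks depended on weak ones: when only the 50% of each list with the higher scores was kept, the Pol II ratio was 1.02 (0.770 to 1.32), while the Sd ratio was 2.35 (1.61 to 3.32). Counting Pol II peaks less than 1 kb apart as 1 lowered the ratio to 1.37. Whether such neighbours are pieces of 1 enriched region was not tested.

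Scores on chromosome 4 were higher than elsewhere for Sd and Yki and lower for Pol II. Sd peaks on chromosome 4 had a median score of 8.39 (quartiles 5.56 and 10.1) against 6.83 on the other arms, and Yki peaks 29.7 (14.5 and 46.0) against 21.6. Of the 109 Yki peaks, 25 stood in the top decile of the whole Yki list, or 22.9% against 9.85% on the other arms. Pol II peaks were weaker, with a median of 10.9 (6.46 and 37.5) against 30.9, and 139 of the 196, or 70.9%, were in the lower 50% of the Pol II list. Pol II peaks were also broad for their scores. Their median width was 510 bp against 422 bp, and 15 were wider than 2 kb, or 7.65% against 3.45%. Sd peaks measured a median of 285 bp against 269 bp and Yki peaks 465 bp against 402 bp.

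Peaks ran along the whole chromosome, in every 100 kb window. No peak of any list started before 63541, and the last, a Pol II peak with a Yki peak inside it, ended at 1347790. Yki was densest in window 6, from 500001 to 600000, with 16 peaks, and sparsest in windows 3, 12 and 14, with 5 each, of which window 14 is less than 50 kb long. Sd was most frequent in window 9, from 800001 to 900000, with 6 peaks, and had 1 peak in each of windows 10 and 14. Pol II was densest in window 7, from 600001 to 700000, with 25 peaks, and least dense in window 8 with 7. The median window held 8 Yki, 4 Sd and 12.5 Pol II peaks, against 9, 2 and 7 in 1187 windows of the other arms.

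**Figure D1:**
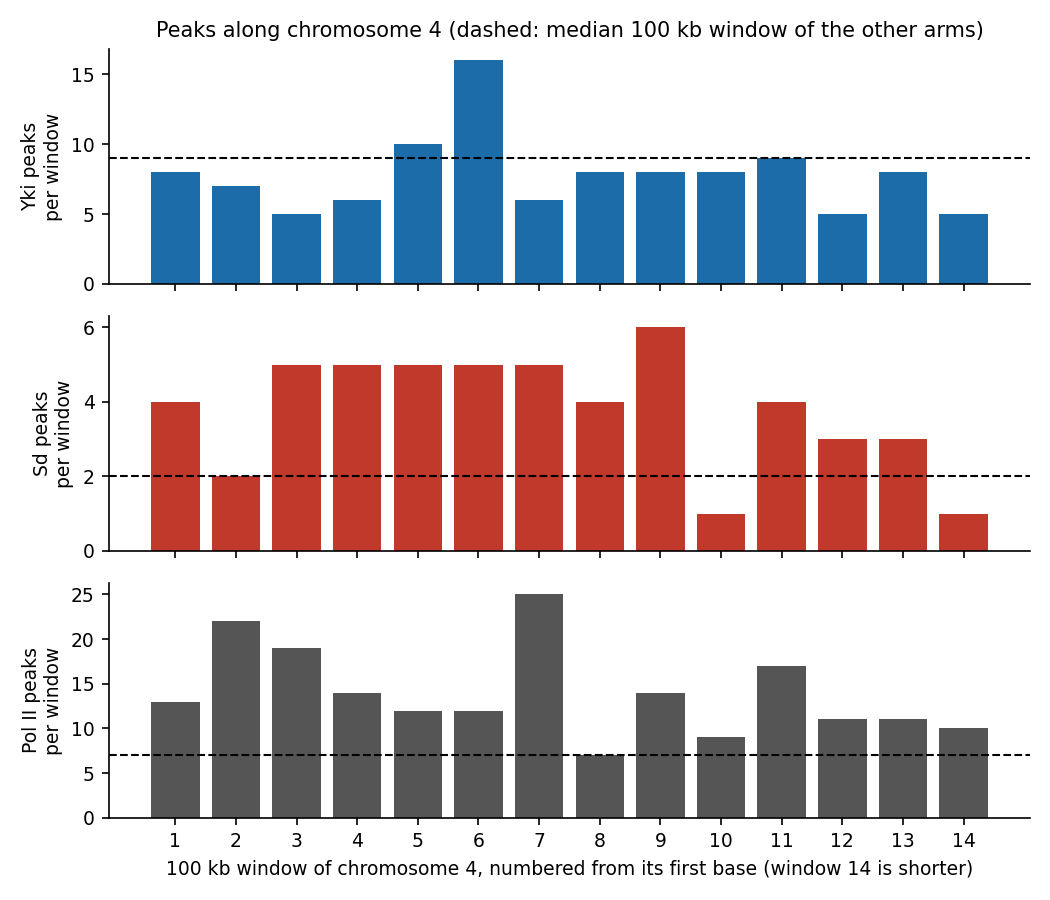
Number of Yki, Sd and Pol II peaks (y axes) in each of the 14 windows of 100 kb along chromosome 4 (x axis, numbered from the first base; the last window is shorter), with a dashed line at the median window of the other arms. Sd reaches or exceeds that median of 2 in all windows but 10 and 14, Pol II reaches its median of 7 in all, and Yki stands above its median of 9 in windows 5 and 6.

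Besides the first 63.5 kb of the chromosome, which held no peak of any list, the longest gap between peaks of all lists combined ran for 76.4 kb from 252127 to 328483. The next such gaps were 55.3 kb from 743252 to 798594 and 35.7 kb from 1255068 to 1290786. Single lists also had gaps between their own peaks that the others filled. Pol II had no peak for 92.4 kb from 1234553 to 1326956, where 7 Yki peaks and 1 Sd peak lay, and for 72.8 kb from 725771 to 798594, with 3 Yki and 2 Sd peaks. Its longest gap, 94.3 kb from 234320 to 328580, held 1 Yki and 1 Sd peak. Sd had none for 91.0 kb from 887925 to 978915, where Yki had 6 peaks and Pol II 7, for 81.8 kb from 1234595 to 1316415, with 5 Yki peaks, and for 80.2 kb from 511111 to 591286, a gap filled by 9 Yki and 7 Pol II peaks. The longest gaps between Yki peaks were 81.9 kb from 246597 to 328483, 64.8 kb from 743252 to 808017, which held 3 Pol II peaks, and 42.7 kb from 336326 to 379069, which held 6.

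Nearly all Sd on chromosome 4 sat on Yki, as elsewhere, but a larger share of Yki peaks carried Sd. Yki was found on 52 of the 53 Sd peaks, or 98.1% (89.9 to 100.0), against 97.7% on the other arms. Sd was found on 51 of the 109 Yki peaks, or 46.8% (37.2 to 56.6), against 19.6% on the other arms, where single arms ran from 18.0% on 2R to 20.7% on 2L. Because nearly every Sd peak lay on a Yki peak, this share largely restates the sizes of the lists. Those were 53 Sd to 109 Yki peaks on chromosome 4 and 2455 to 11437 on the other arms. The excess stood mainly at Yki peaks of middle rank. Between the 50th and the 90th percentile of Yki score, 27 of 41 peaks had Sd, or 65.9% (49.4 to 79.9), against 23.8%. In the top decile 20 of 25 did, or 80.0% (59.3 to 93.2), against 69.0%, and in the lower 50% of scores 4 of 43, or 9.30% (2.59 to 22.1), against 6.68%. With the other arms weighted to the score deciles of the chromosome 4 peaks, they reached 28.7%, and 18.0 points of the difference of 27.1 were left. Yki peaks with Sd scored a median of 45.5 (quartiles 33.7 and 56.4) and those without 14.6 (10.2 and 23.9). The order was the same on the other arms, with medians of 41.1 and 18.5.

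Sd sat close to the middle of its Yki peak. It lay wholly inside in 50 of 52 pairs, and the middle of each Sd peak was 30.5 bp (median, quartiles 14.5 and 70.6) from that of its Yki peak, against 63.8 bp (19.0 and 185) on the other arms. A single Sd peak overlapped each of 50 of the 51 shared Yki peaks. The other, at 856019 to 856816 with a Yki score of 86.1, held 2, at 856104 to 856388 (score 9.25) and 856501 to 856745 (10.0). The single Sd peak without Yki, at 251920 to 252126 with a score of 5.08, had no Pol II peak either and stood just before the 76.4 kb gap that begins at 252127.

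Of the 10 highest Yki peaks of the chromosome, 9 had an Sd peak and 3 a Pol II peak. The low count on Pol II did not extend to the 25 Yki peaks in the top decile of the whole list, of which 14 were on Pol II, or 56.0% (34.9 to 75.6), against 59.8% on the other arms. Over all Yki peaks of the chromosome, those on Pol II had the higher median score, 32.1 (n = 61) against 22.7 (n = 48). The order was the same on the other arms, with 25.7 (n = 6202) and 16.3 (n = 5235). The highest Yki peak of chromosome 4, at 507029 to 507612, scored 113 and held an Sd peak of 16.3, the highest score in the Sd list. That Sd score was shared by 25 peaks in the genome, 3 of them on chromosome 4. The second, at 445253 to 445765, scored 111 with Sd at 10.9. The third, at 1000312 to 1001001, scored 88.6 with Sd at 10.1, and the fourth was the peak with 2 Sd peaks. The next without Pol II were at 427458 to 427836 (72.1, Sd 4.94), 855485 to 855902 (70.6, Sd 9.44) and 1316278 to 1317011 (66.1, Sd 3.69). The exception without Sd was at 110342 to 110802, with a score of 71.9 and a narrow Pol II peak of 205 bp scoring 6.80 inside it. The remaining 2, at 380299 to 381056 (66.7) and 887382 to 887970 (65.3), had both Sd and Pol II.

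The 10 highest Sd peaks all had Yki, and 9 had Pol II. Over all 53 Sd peaks of the chromosome these shares were 98.1% and 54.7%. The same count was not made for the highest Sd peaks of the other arms, so it is not shown to be particular to chromosome 4. Besides the peak at 507148 to 507554, which had no Pol II, the tied top peaks were at 380333 to 380968, within a Yki peak and across the low end of a 1358 bp Pol II peak scoring 110, and at 591287 to 591684, across the high end of a 974 bp Pol II peak scoring 47.2. The others were at 335333 to 335643 (14.7), 64305 to 64620 (13.8), 150282 to 150586 (13.6), 226433 to 226816 (13.5), 328521 to 328783 (12.9), 887501 to 887924 (12.1) and 1047608 to 1048188 (11.3). The Yki peaks under these last 7 scored between 39.2, at 1047488 to 1048248, and 65.3, at 887382 to 887970. Over all Sd peaks of the chromosome, those on Pol II had a median score of 9.25 (quartiles 7.51 and 12.1, n = 29) and those off it 6.45 (4.67 and 9.25, n = 24). On the other arms the order was the opposite and the gap small, with 6.65 (n = 954) and 6.93 (n = 1501).

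Sd met Pol II more often on chromosome 4 than on any other arm, with a wide interval. Pol II overlapped 29 of 53 Sd peaks, or 54.7% (40.4 to 68.4), against 38.9% on the other arms and 33.4% on 3L to 45.8% on X singly. The overlap of Yki with Pol II was close to the rest, at 61 of 109, or 56.0% (46.1 to 65.5), against 54.2%. Yki peaks with Sd lay on Pol II in 31 of 51 cases, or 60.8% (46.1 to 74.2), and those without Sd in 30 of 58, or 51.7% (38.2 to 65.0). These intervals overlap widely, whereas on the other arms Yki peaks with Sd were the less often on Pol II, at 45.9% (43.8 to 48.0) against 56.3% (55.2 to 57.3). Whether the 2 differences differ from each other was not tested.

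**Figure D2:**
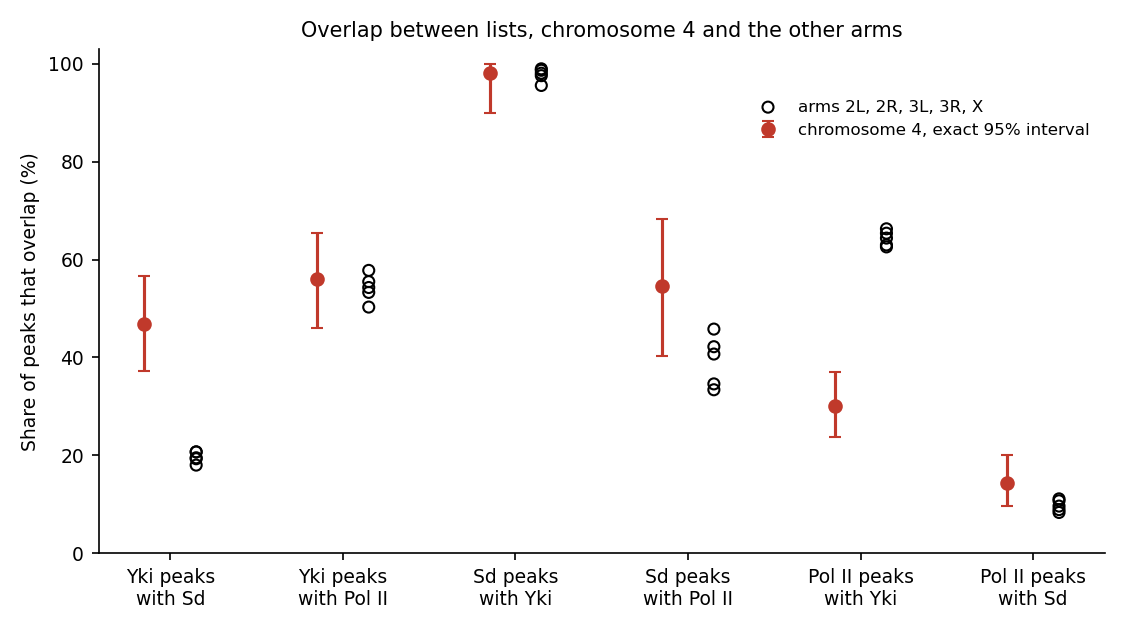
Share of the peaks of each list that overlap a peak of each other list (y axis, percent), for chromosome 4 with its exact 95% interval and for the 5 other arms as open circles. The arms lie outside the chromosome 4 interval for Yki with Sd (46.8%) and Pol II with Yki (30.1%), and inside or across it for the other overlaps.

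Where Sd and Pol II overlapped on chromosome 4, Sd lay across an edge of the Pol II peak. In 27 of 29 pairs, or 93.1% (77.2 to 99.2), part of the Sd peak stuck out beyond the Pol II peak on 1 side, against 58.9% (55.7 to 62.0) of 975 pairs on the other arms. Sd lay wholly inside Pol II in 2 pairs, or 6.90%, against 38.2%. The centre of the Sd peak was a median of 77.5 bp inside the nearer edge (quartiles 42.5 and 98.0), against 97.5 bp (23.8 and 198), although the Pol II peaks in these pairs were a median of 1358 bp wide on chromosome 4 and 637 bp elsewhere. Among Pol II peaks wider than 1 kb, a limit chosen after the data were seen, 17 of 19 pairs crossed an edge, or 89.5%, against 36.7% of 278 pairs. Of the 27 crossings, 20 were at the end of the Pol II peak with the higher coordinate and 7 at the lower end. On the other arms, 293 of 574 crossings were at the higher end and 281 at the lower. Without annotation, these ends cannot be related to the direction of transcription. When peaks were reduced to their central 200 bp, 2 of 53 Sd peaks overlapped Pol II, or 3.77%, against 18.8% on the other arms, so the difference in Sd overlap turned direction. The share of Pol II peaks with Sd turned too, to 1.02% against 4.73%.

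Single sites show the arrangement. The 4344 bp Pol II peak at 330319 to 334662 (score 81.0) had Sd (10.1) and Yki (37.6) peaks at its high end, with Sd reaching 77 bp beyond it. The 3474 bp Pol II peak at 84548 to 88021 (86.5) had Sd at 87808 to 88080 (8.29) and Yki at 87631 to 88118 (40.0). At the low end of the 1675 bp Pol II peak at 328581 to 330255 (115), Sd began 60 bp before the edge. The 2295 bp Pol II peak at 885530 to 887824 (112) had Sd (12.1) and Yki (65.3) at its high end. The widest Pol II peak, 4610 bp at 679255 to 683864 (72.7), was the only one with 2 Sd peaks, of which 1 crossed its high end and 1, at 681208 to 681478, lay 1953 bp or more from the nearer edge. The latter sat in the widest Yki peak of the chromosome, 1925 bp at 679635 to 681559.

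**Figure D3:**
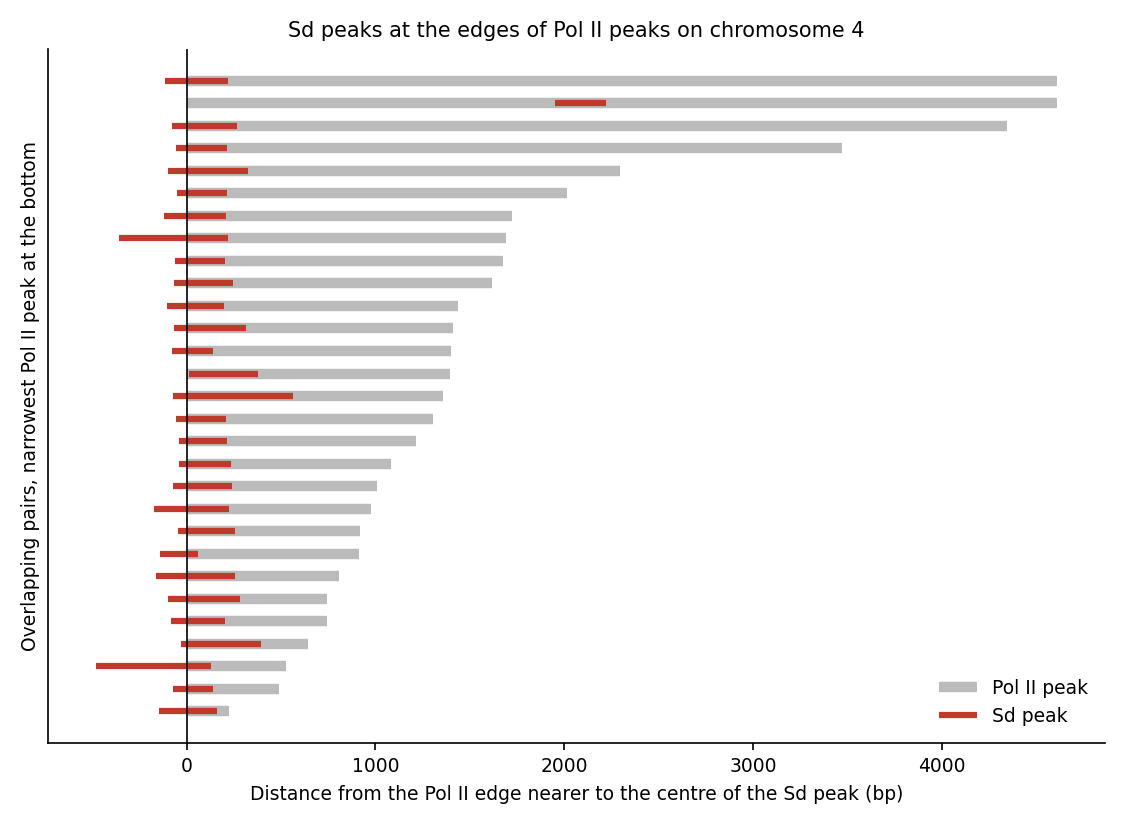
The 29 overlapping pairs of an Sd peak (red) and a Pol II peak (grey) on chromosome 4, drawn to scale from the Pol II edge nearer to the Sd centre (x axis, bp; negative is outside the Pol II peak) and stacked from the narrowest Pol II peak at the bottom to the widest at the top. In 27 pairs the Sd peak reaches across the line at 0, and in 2 it lies inside.

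Yki showed the same placement less strongly. It crossed an edge in 51 of 63 pairs, or 81.0% (69.1 to 89.8), against 72.1% (71.0 to 73.2) of 6857 pairs, and among Pol II peaks wider than 1 kb in 83.3% of 36 pairs against 50.3%. The Yki centre fell outside the Pol II peak in 14.3% of pairs against 31.6%.

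Most Pol II peaks of chromosome 4 had no Yki peak, unlike those of every other arm taken whole. Yki overlapped 59 of 196, or 30.1% (23.8 to 37.0), against 64.3% on the other arms and 62.6 to 66.3% on single arms. Yki peaks lay on Pol II about as often as elsewhere (56.0% against 54.2%). The lower share therefore goes with the sizes of the lists, 196 Pol II to 109 Yki peaks against 9753 to 11437. In centromere-end stretches as long as chromosome 4, chosen after the data were seen, it was 38.9% on 3L and 48.3% on 2R. On 2L, 3R and X it was 52.5%, 65.1% and 79.1%. On chromosome 4 the shortfall stood at weak Pol II peaks. In the lower 50% of Pol II scores 8 of 139 had Yki, or 5.76% (2.52 to 11.0), against 39.7% (38.3 to 41.1). Between the 50th and the 90th percentile 44 of 50 did, or 88.0% (75.7 to 95.5), against 86.3%, and in the top decile all 7 did, against 95.6%. With the other arms weighted to the score deciles of the chromosome 4 peaks the difference was -17.5 points, and with the upper 50% of each list it turned direction, to 2.64 points (interval -9.96 to 15.2). Some stronger Pol II peaks without Yki were narrow and had no other Pol II peak within 2 kb. Those picked after their values were seen were 324 bp at 1109307 to 1109630 (79.7), 329 bp at 827756 to 828084 (69.0) and 339 bp at 447843 to 448181 (48.1). They were not all far from Yki, since a Yki peak at 828326 to 828613 stood close to the one at 827756.

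**Figure D4:**
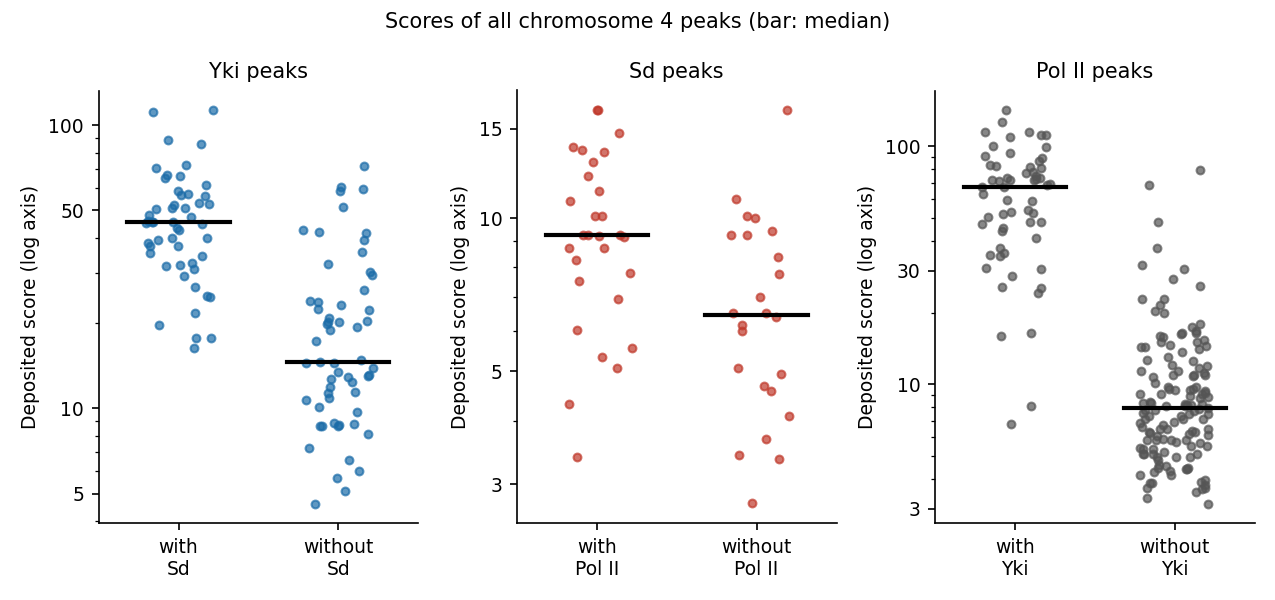
Deposited score (y axes, logarithmic) of every chromosome 4 peak, with 1 point per peak and the median as a bar. From left to right are the 109 Yki peaks by Sd overlap (medians 45.5 and 14.6), the 53 Sd peaks by Pol II overlap (9.25 and 6.45) and the 196 Pol II peaks by Yki overlap (67.7 and 7.96).

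Pol II peaks with Yki scored a median of 67.7 (quartiles 42.6 and 82.2) and were 1042 bp wide, and those without scored 7.96 (5.51 and 11.9) and were 387 bp wide. On the other arms the medians were 54.7 and 9.79, with widths of 480 and 336 bp. Sd overlapped 28 of the 196 Pol II peaks, or 14.3% (9.71 to 20.0), against 9.63%, all of them among the 59 with Yki. Of those 59, 47.5% (34.3 to 60.9) had Sd, against 15.0% (14.1 to 15.9) of Pol II peaks with Yki on the other arms. Between the 50th and the 90th percentile of Pol II score, 23 of 50 had Sd, or 46.0% (31.8 to 60.7), against 11.6%. In the top decile 3 of 7 did, or 42.9% (9.90 to 81.6), against 21.3%. In the lower 50%, which held most of the peaks, the direction was the opposite, with 2 of 139 or 1.44% (0.175 to 5.10) against 5.59%.

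The 10 highest Pol II peaks all had Yki, and 5 had Sd. The highest, 1055 bp at 715774 to 716828, scored 142 and had a Yki peak at each end, at 715703 to 716214 (19.9) and 716470 to 716855 (12.4), with no Sd. The second, at 522251 to 523031 (127), had Yki at 29.7 and no Sd. Those at 1052238 to 1052923 (115), 194727 to 195955 (112) and 89827 to 90575 (99.6) also lacked Sd, although the Yki peak on the last, at 89131 to 90394, held an Sd peak that did not reach Pol II. With Sd were the peaks at 328581 to 330255 and 885530 to 887824 described above, at 380405 to 381762 (110), at 1144654 to 1146378 (100) and at 152591 to 153983 (93.9). Among the 5 widest, the 4112 bp peak at 1227087 to 1231198 (27.6) had neither, and the 3925 bp peak at 154459 to 158383 (34.6) had a Yki peak of 8.74 and no Sd.

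Pol II peaks, most of them weak, lay close together, often in strings. At 145 Pol II peaks per Mb against 82.0, shorter gaps and more joining at a fixed distance follow in part from density. Whether the peaks were grouped beyond that was not tested. Neighbouring Pol II peaks were a median of 943 bp apart, edge to edge (quartiles 314 and 4705), against 2354 bp (436 and 10249), and 51.3% of gaps (44.0 to 58.5) were at most 1 kb, against 36.5%. Joining neighbours at most 2 kb apart placed 173 of 196 Pol II peaks, or 88.3%, in 46 clusters, against 68.6% of Pol II peaks on the other arms. Of these, 11 clusters held 5 or more peaks and together 42.9% of the Pol II peaks, against 22.7%. The largest had 11 peaks each, at 63541 to 77070 and at 216674 to 226715. Another 2 had 10 each, at 666908 to 685238 and 1134670 to 1146670. The clusters at 1326957 to 1334807 and 1339934 to 1347790 had 5 peaks each, of nearly equal widths in the same order. These were 729, 308, 2914, 319 and 443 bp in the former and 728, 299, 2931, 311 and 442 bp in the latter. Whether the same sequence lies at both places was not tested, and both enter all counts here. In the string at 216674 to 226715, 10 peaks in a row scored 14.4 or less, and the last, at 225971 to 226715, scored 82.7 and was the only one with Yki (56.7) and Sd (13.5). The string at 63541 to 77070 was bounded by its strongest peaks, at 63541 to 64546 (72.2) and 76372 to 77070 (89.3), which were its only peaks with Yki. In the 9 peaks at 877502 to 887824, only the last had Yki and Sd.

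Across the 24 Pol II clusters of 3 or more peaks, the strongest peak was the first or the last in 17, or 70.8% (48.9 to 87.4), against 60.9% on the other arms. The strongest peak had Yki in 21 of the 24, or 87.5%, against 93.5%. Of all 129 peaks in these clusters 35 had Yki, or 27.1%, against 55.9%, and 21 had Sd, or 16.3%, against 7.40%. An Sd peak lay on at least 1 Pol II peak of 18 clusters, or 75.0% (53.3 to 90.2), against 25.6% (23.0 to 28.3). Over all 46 Pol II clusters, those of 2 peaks included, 15 had no Yki peak. They held 33 peaks, at most 3 each, and none of these scored above 20.4. The same count was not made on the other arms, so 15 of 46 is not shown to be particular to chromosome 4. Among clusters of 3 or more peaks, 87.5% (67.6 to 97.3) had Yki, against 96.9% (95.7 to 97.8).

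Yki peaks were not grouped in this way. The median gap was 6068 bp (quartiles 953 and 18555) against 3653 bp (948 and 9889), and 54.1% of Yki peaks lay in clusters against 58.2%. On the other arms 173 of 2512 Yki clusters had 5 or more peaks, and the largest had 13. None of the 24 Yki clusters of chromosome 4 had more than 4, and so small a set says little about larger clusters. The 4 clusters of 4 Yki peaks were at 76678 to 81596, 507029 to 511723, 715703 to 718489 and 853617 to 856816. Sd peaks were a median of 15.1 kb apart (3.76 and 38.0) against 22.5 kb, and 32.1% lay in 7 clusters against 27.6%. The 2 with 3 or more Sd peaks were inside Yki clusters just named. At 507148 to 511110, 3 Sd peaks scored 16.3, 6.52 and 7.77 with no Pol II peak among them. At 853638 to 856745, 4 Sd peaks scored between 6.16 and 10.0, and a Pol II peak of 91.0 at 854704 to 855150 lay between the first and the second without touching any Sd peak. Both groups had Yki peaks ranked among the 10 highest of the chromosome.

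Merging overlapping peaks of all lists gave 243 sites, and their makeup differed from that of the 14382 sites on the other arms. Sites with Pol II alone were the most frequent, at 137 or 56.4% (49.9 to 62.7), against 24.2% and at most 26.4% on a single arm. Sites with all 3 proteins numbered 30, or 12.3% (8.49 to 17.2), against 7.05% and at most 8.05%. Per Mb this was 22.3 against 8.52. Such a site did not always have Sd and Pol II on shared bases. At 89131 to 90575 and at 465760 to 467120, a Yki peak joined Sd and Pol II peaks that did not overlap each other. Sites with Yki and Sd but no Pol II numbered 20, or 8.23% (5.10 to 12.4), against 8.43%, or 14.8 against 10.2 per Mb. Fewer sites had Yki with Pol II and no Sd, at 27 or 11.1% (7.45 to 15.8) against 32.0%, and Yki alone, at 28 or 11.5% (7.79 to 16.2) against 27.9%. For these last 2 classes every single arm was above the chromosome 4 interval. Sd alone was found once and Sd with Pol II without Yki 0 times, which allows a share of up to 1.51% of the 243 sites by the exact interval.

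To set chromosome 4 beside regions of its own length, the other arms were divided into 86 consecutive stretches as long as it. Its 196 Pol II peaks exceeded all 86, of which the highest had 194, and 1 stretch reached its 53 Sd peaks, with 54. In 14 stretches there were as few Yki peaks or fewer. Pol II peaks carried Yki in 39.3% of cases in the lowest stretch, above the 30.1% of chromosome 4. The share of Yki peaks with Sd was at or above 46.8% in 2 stretches, both at the centromere end of their arm. They were the first on 2R (62.5%) and the last on 3L (55.6%). The share of Sd peaks on Pol II was at or above 54.7% in 8. In the 5 stretches next to a centromere, pooled, a set chosen after the data were seen, Pol II overlapped 62.9% of Sd peaks (52.5 to 72.5) and Sd overlapped 19.1% of Pol II peaks, both above chromosome 4. Sd overlapped 28.4% of the Yki peaks in these 5 stretches, below the 46.8% of chromosome 4. The median stretch had 132 Yki, 26.5 Sd and 111 Pol II peaks.

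**Figure D5:**
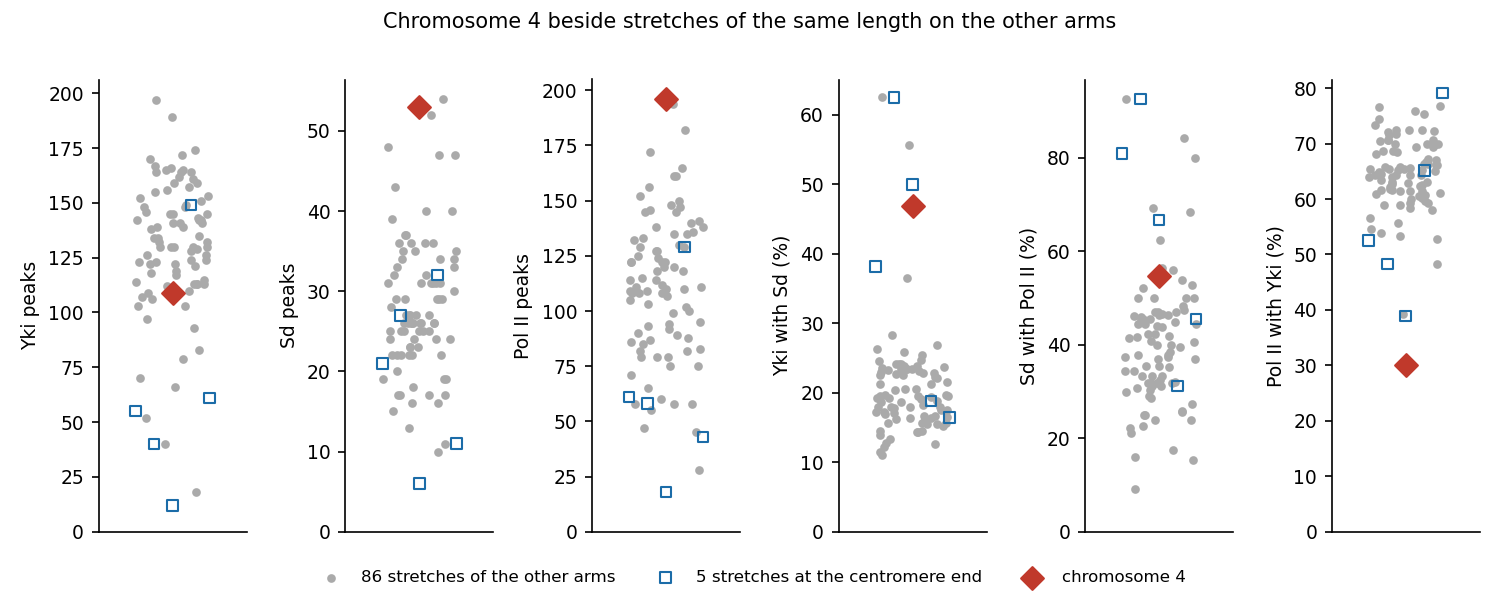
Chromosome 4 (red diamond), 86 consecutive stretches of its length on the other arms (grey) and the 5 such stretches next to the centromere of each arm (blue squares), by number of peaks in 3 panels and by share of overlapping peaks (percent) in 3 panels. Chromosome 4 lies above all grey points for Pol II peaks (196) and below all for Pol II with Yki (30.1%), and 1 grey point exceeds its 53 Sd peaks.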

How the data were processed

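Per the labels, 3 of 5 samples were immunoprecipitations and 2 were input DNA, whose values were not analysed here. Per the submitters' processing notes, the authors used CASAVA 1.8.2, Bowtie and MACS2 with build dm3. Bowtie and MACS2 versions, parameters, control library and filters are not stated in the labels. Each deposited list gives a chromosome, start, end, name and score per peak. No header states the unit of the deposited score. Its minima (Yki 3.01, Sd 2.00 and Pol II 3.01 over whole lists) fit a −log10 q value, and it depends on depth, which is unknown.

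Overlaps, gaps, clusters (neighbours at most 2 kb apart), windows, stretches and intervals were computed with Python 3.11.15, numpy 2.4.6, pandas 2.3.3 and scipy 1.17.1, and figures with matplotlib 3.10.9. Peaks were put in windows and stretches by their centres. Chromosome length was the last peak end in any list. Overlap, decile weights and clusters were tested on simulated data. The members, lists and comparisons were chosen with earlier results of these data known. Named peaks are the 10 highest and 5 widest of each list, Sd peaks without Yki, Yki peaks with 2 Sd peaks, the longest gaps, the largest clusters and the extreme windows, with ties by start. Other peaks named, the placement at Pol II edges, the position of the strongest peak in a cluster and the centromere ends were chosen after values were seen. The gene table, of Release 6, served only for the chromosome of named genes, and no sequence of build dm3 was used.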

Additional observations from a re-analysis of the deposited data

How the results depend on the processing

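The excess of Sd on Yki peaks kept its direction under every alternative run, with a difference from the other arms of 18.0 to 30.0 points against 27.1 as reported. Counting peaks within 1 kb as shared raised chromosome 4 shares to 60.6% for Yki with Sd, 67.0% for Yki with Pol II, 71.7% for Sd with Pol II, 41.3% for Pol II with Yki and 22.4% for Pol II with Sd. With central 200 bp parts the shares were 12.8% for Yki with Pol II, 86.8% for Sd with Yki, 3.77% for Sd with Pol II, 7.14% for Pol II with Yki and 1.02% for Pol II with Sd, and the differences from the other arms were -15.0 points for Sd with Pol II and -3.71 for Pol II with Sd, both of opposite direction, and -27.3 for Pol II with Yki. With the upper 50% of each list, shares were 100% for Sd with Yki, 63.2% for Pol II with Yki and 35.1% for Pol II with Sd. The differences were then 37.5 points for Sd with Pol II, 28.6 for Pol II with Sd and 2.64 for Pol II with Yki, the last of opposite direction. The density ratio was 1.02 for Yki, also turned, and 1.02 for Pol II. Median widths were 512 bp for Yki and 1055 bp for Pol II, and median gaps 12012 bp for Yki, 24992 bp for Sd and 12475 bp for Pol II. Against the centromere ends, the differences were -8.17 points for Sd with Pol II and -4.81 for Pol II with Sd, both turned. The difference for Pol II with Yki was -27.0 points with an overlap of 50% of the shorter peak and -17.5 with score deciles. Joining Pol II peaks within 1 kb gave a density ratio of 1.37. Clustering within 5 kb placed 68.8% of Yki, 49.1% of Sd (in 11 clusters) and 93.4% of Pol II peaks in clusters, and within 1 kb 76.0% of Pol II peaks. With Pol II peaks wider than 1 kb, the excess of edge crossing over the other arms was 52.8 points for Sd and 33.1 for Yki. The centromere and width alternatives were chosen after seeing the data. Of the alternative values, 46 stayed within the limits of the reported ones, 32 moved beyond them and 6 turned direction. Beyond what the settings change by construction, the cause was not tested.

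No paired analysis was possible because only 1 library was made per antibody, so leaving out a replicate was not possible either. Read depth is unknown, so missing peaks in a list cannot be told from peaks below its calling limit.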

Other observations

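The stretches next to the centromere of the other arms, as long as chromosome 4 and chosen after seeing the data, were set beside it. Pooled, they held 317 Yki, 97 Sd and 309 Pol II peaks, against 109, 53 and 196 on chromosome 4 alone. Sd overlapped 28.4% of their Yki peaks (23.5 to 33.7), below the 46.8% of chromosome 4 and above the 19.6% of the whole arms. Pol II overlapped 62.9% of their Sd peaks (52.5 to 72.5), against 54.7% on chromosome 4 and 38.9% on the whole arms, and Sd overlapped 19.1% of their Pol II peaks (14.9 to 23.9), against 14.3% and 9.63%. The stretches were unlike each other. On 2R, 62.5% of 40 Yki peaks had Sd and 92.6% of 27 Sd peaks had Pol II. On 2L these shares were 38.2% of 55 and 81.0% of 21, and on 3L 50.0% of 12 and 66.7% of 6. On X they were 16.4% of 61 and 45.5% of 11, and on 3R 18.8% of 149 and 31.2% of 32. The share of Pol II peaks with Yki was lowest on 3L, at 38.9% of 18, and highest on X, at 79.1% of 43, so all 5 were above the 30.1% of chromosome 4. These stretches had 12 to 149 Yki peaks each, and none reached the 53 Sd or 196 Pol II peaks of chromosome 4.

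Peak score and width rose together in all lists on chromosome 4, as a description across peaks of 1 library. Spearman's rho was 0.70 for 196 Pol II peaks, 0.59 for 109 Yki peaks and 0.52 for 53 Sd peaks, against 0.52, 0.55 and 0.31 on the other arms.

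Peaks outside Pol II peaks lay at different distances from them. Of the 24 Sd peaks without Pol II, 9 were within 1 kb of a Pol II peak, or 37.5%, against 20.3% of 1501 on the other arms. The median distance was 2375 bp (quartiles 853 and 9502), against 5589 bp (1406 and 14498) on the other arms. Pol II peaks were denser on chromosome 4, which by itself shortens such distances, and this was not accounted for. For the 48 Yki peaks without Pol II the median was 5950 bp (1110 and 11921), against 5082 bp (1383 and 13261).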
